A study of Mus musculus with 14 samples.

Results

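Wide m6A peaks are described here: the stretches of at least 800 bp that the authors' peak caller listed as enriched by an m6A antibody in mouse hepatocytes. The members were chosen by the width of the listed interval alone, so the widths are a description. Of the 17277 peaks listed for the immunoprecipitate (IP) labelled cKO, 795 were wide, a share of 4.6% (95% Wilson interval 4.3% to 4.92%). Of the 17175 listed for the IP labelled WT, 884 were wide, a share of 5.15% (4.83% to 5.49%). Together they make 1679 of the 40679 peaks listed for the 6 IP libraries of the series. The study asked what METTL3 does in liver, using C57BL/6 mice aged 8 weeks. cKO mice carried floxed Mettl3 alleles (fl/fl) with Cre driven by the albumin promoter, which is active in hepatocytes, and the methods list the albumin Cre for the WT animals too. Male hepatocytes, released by collagenase perfusion and pelleted at low speed, gave 1 IP and 1 input library per genotype. Male liver gave 2 of each per genotype. How many animals went into a library is not stated in the labels or the methods.

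N6-methyladenosine, or m6A, is the most abundant internal mark of mRNA. A complex in which METTL3 is the catalytic subunit places it on adenosines in a short sequence context whose core is often GGAC, mostly away from splice junctions, so that long internal exons and the last exon around and after the stop codon carry much of it. Reader proteins of the YTH and IGF2BP families bind the mark and alter how long the mRNA lasts and how well it is translated.

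The GGAC core stood at many places in a wide peak. The site nearest the centre is printed for some of the widest and the most enriched ones, since these carry the description that follows. Each line is 24 bases of the mRNA strand, 5′ to 3′, from RefSeq's GRCm38.p6 (mm10) with GGAC in capitals.
Apob exon 26, chr12:8009275-8009298, plus strand: acatttctgtGGACcatgcctgct
Macf1 exon 36, chr4:123473582-123473605, minus strand: ggaaacagcaGGACttatggaccc
Ankrd11 exon 9, chr8:122893691-122893714, minus strand: atgagagcgaGGACgagaaggacg
Golgb1 exon 13, peak labelled WT, chr16:36914463-36914486, plus strand: ctacctttatGGACagcttagtga
Scd1 exon 6, chr19:44396462-44396485, minus strand: agagcacccaGGACttgctgctgt
Bmp2 exon 3, chr2:133561423-133561446, plus strand: ctttgtatgtGGACttcagtgatg
Clec4f exon 4, chr6:83652803-83652826, minus strand: agcacagtatGGACaacattagtg
Slk exon 9, chr19:47620236-47620259, plus strand: agtgaggtggGGACagacgaggct
Glyctk exon 4, chr9:106154807-106154830, minus strand: tgctgggcagGGACccgtggtgtg
Phf3 exon 15, chr1:30805104-30805127, minus strand: caagacaataGGACttcaagtgac
The bases around the core differed from site to site, and these peaks held between 3 sites (Phf3) and 51 sites (Ankrd11). A printed site is the match of letters nearest a peak's centre and was not measured as methylated on its own. Those printed lay from 13 bp (Macf1) to 196 bp (Ankrd11) from the centre. Among those not printed, the Arhgap5 site in WT lay 863 bp away.

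The hepatocyte libraries have no replicates, so what follows on their peaks and inputs has no test, and intervals cover counting error only. Mettl3 in the inputs stood at 2.91 FPKM (fragments scaled by transcript length and sequencing depth) in cKO hepatocytes and 3.44 FPKM in WT hepatocytes. The cKO livers held 26.3 and 14.7 FPKM and the WT livers 8.43 and 10.6 FPKM, so the gene was slightly lower under the label cKO in hepatocytes, with 1 library each, and higher in both livers. The paper states that its allele deletes only some exons of Mettl3, so FPKM of the whole gene cannot check the label. It reports less METTL3 protein and less m6A in the mRNA of cKO livers. The libraries are named by their labels. Hepatocyte markers were abundant in the hepatocyte inputs, and the 23 measured ones were each higher under the label cKO. The 16 measured genes of Kupffer cells and macrophages summed to 27.2 FPKM in cKO and 775 FPKM in WT, and the 14 of sinusoidal endothelium to 37.2 FPKM in cKO and 347 FPKM in WT. The 12 of stellate cells summed to 14.1 FPKM in cKO and 140 FPKM in WT. Fewer cells of a type and less RNA per cell cannot be told apart in such bulk samples. The scaled counts on genes, a rough guide to depth, summed to 3304776 in the cKO input and 1885720 in the WT input.

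Most wide peaks were not far above the limit. Their median width was 1050 bp in cKO (quartiles 898 and 1321) and 1032 bp in WT (883 and 1340), against 200 bp for the narrower peaks of either library. At least 2000 bp were reached by 45 peaks in cKO and 54 in WT. Few as they were, wide peaks held 19.6% of all listed bases in cKO and 21.1% in WT. They lay in 710 of the 8150 genes with any peak in cKO (8.71%) and in 800 of the 7450 in WT (10.7%). No 2 intervals of a library touched each other. The lists hold only the caller's final intervals, so whether a wide peak joins several sites cannot be told from them.

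**Figure D1:**
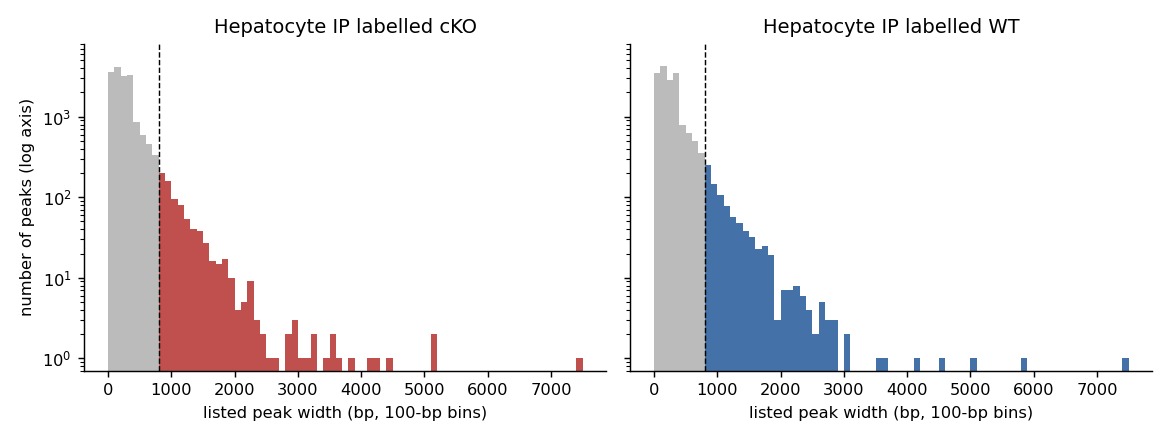
Number of listed peaks (log axis) by width in bins of 100 bp, for the hepatocyte IP labelled cKO (left) and WT (right), with the 800 bp limit as a dashed line and wide peaks in colour. In cKO 332 peaks lay in the bin below the limit and 201 in the bin above it, and the widest peak in each measured 7467 bp.

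The limit cut through a continuous range. Just inside it in cKO were peaks of Zfp664 (800 bp, 11.48-fold enriched), Chd7 (801 bp, 71.78-fold) and Meis1 (801 bp, 35.39-fold). Just outside it were Mtap (799 bp, 130.9-fold), Nfic (799 bp, 47.51-fold) and Dsp (798 bp, 14.97-fold). In WT, Ak3, Ggact and Tmcc1 were inside at 800 bp each, with enrichments of 17.72, 115.14 and 85.95, and Abhd15 (799 bp, 73.6-fold), Ranbp6 (799 bp, 182.01-fold) and Lpin2 (798 bp, 18.9-fold) were outside. The Mtap peak had a wide counterpart of 803 bp in WT, so the limit alone put that pair on either side.

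Wide peaks were found in long exons. The listed RefSeq transcript was found in the reference for 695 wide peaks in cKO and 752 in WT. Of these, 690 (99.3%) in cKO and 746 (99.2%) in WT lay inside 1 exon of it, as did 99.6% and 99.5% of the narrower ones. A width of 800 bp therefore needs an exon at least that long. The holding exons had a median length of 2528 bp in cKO and 2342 bp in WT, against 237 bp and 225 bp for narrower peaks. The last exon held 60% of the wide peaks in cKO (56.3% to 63.6%) and 69.3% in WT (65.9% to 72.5%). Internal exons held 31.7% in cKO and 23.5% in WT, and genes with a lone exon 6.67% in cKO and 4.16% in WT. Among narrower peaks in exons of at least 800 bp, internal exons held 13.3% in cKO and 12.3% in WT.

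A wide peak filled a median of 47.2% of its exon in cKO and 49.9% in WT. Neither end was at an exon border in 57.7% of cases in cKO and 55.2% in WT. The whole exon was listed, from border to border, for 40 wide peaks in cKO and 55 in WT, and these stop where the exon does. Over the narrower peaks the whole exon was listed in 35.1% of cases in cKO and 38.2% in WT. Most wide peaks were thus bounded at one end or both within the exon.

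**Figure D2:**
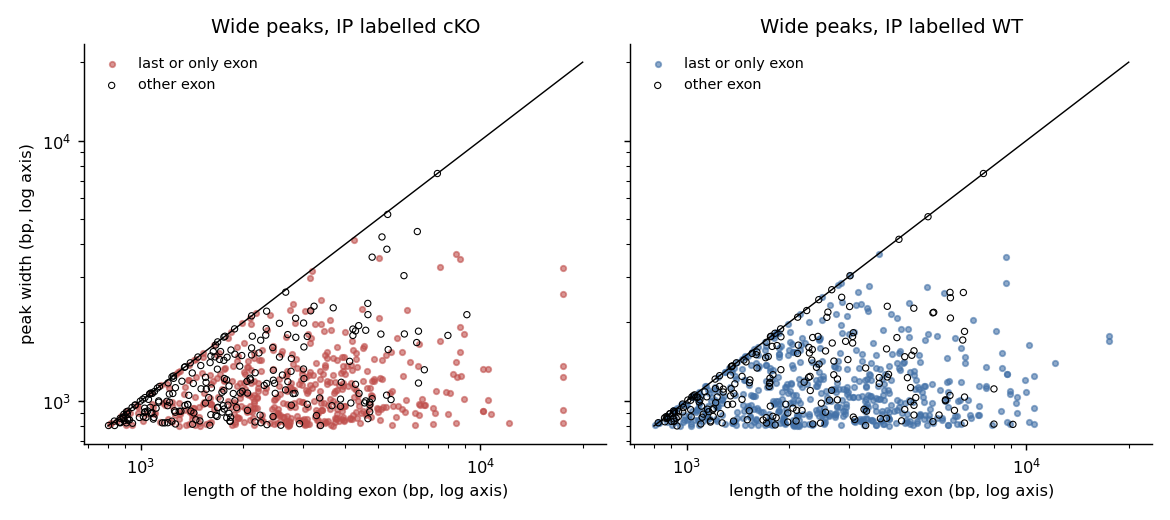
Width of each wide peak against the length of the exon that holds it (both axes log, bp), for the IP labelled cKO (left, 690 peaks) and WT (right, 746 peaks), where points on the line fill their exon. Filled points are last or only exons and open points other exons, and the open point at 7467 bp on the line of each panel is Apob.

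By region, wide peaks held more 3'UTR than narrower peaks as a whole, and less than narrower peaks in exons of the same length class. The centre was in the 3'UTR for 267 of 759 placed wide peaks in cKO, or 35.2% (31.9% to 38.6%), and for 410 of 845 in WT, or 48.5% (45.2% to 51.9%). The narrower peaks had 25.3% in cKO and 24.8% in WT. Among narrower peaks in exons of at least 800 bp the 3'UTR share was 60.3% in cKO (59% to 61.7%) and 61.3% in WT (59.9% to 62.7%), while the wide peaks in such exons had 34.5% and 47.7%. The coding sequence held 63.9% of the wide peaks in cKO and 50.5% in WT. Of those in coding sequence, 226 of 444 in cKO (50.9%) and 191 of 380 in WT (50.3%) lay in an exon that was neither the last nor the only one. The 5'UTR held 7 wide peaks in cKO and 8 in WT.

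**Figure D3:**
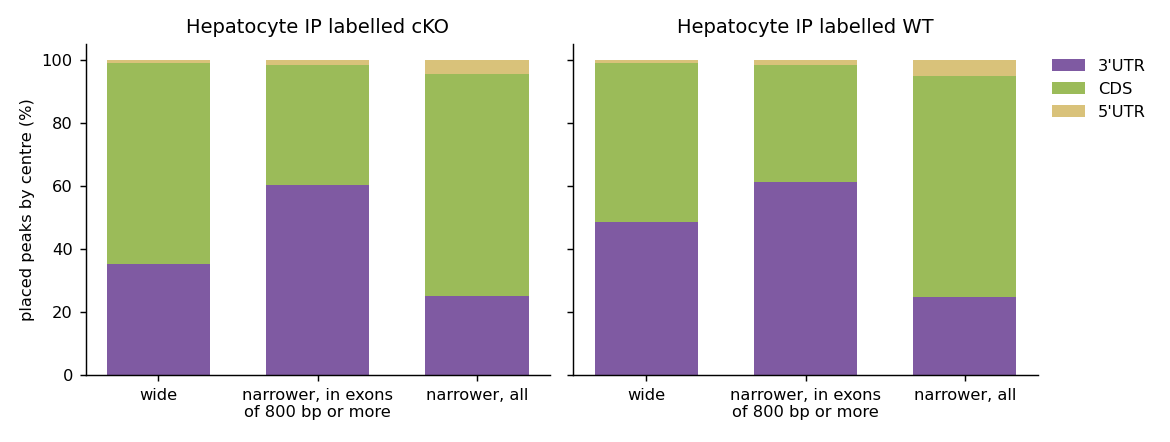
Share of placed peaks (%) with the centre in the 3'UTR, the coding sequence (CDS) or the 5'UTR, for wide peaks, narrower peaks in exons of at least 800 bp, and all narrower peaks, in the IP labelled cKO (left) and WT (right). The 3'UTR share of wide peaks, 35.2% and 48.5%, stands between those of the other classes.

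The widest peak was the same interval in both libraries. It spans exactly exon 26 of 29 of Apob (chr12:8005736-8013202, 7467 bp, coding sequence), the gene of the protein around which liver builds its lipoproteins. Its enrichment, the authors' ratio of IP over input, was 7.92 in cKO and 46.84 in WT, where its input stood at 556 FPKM in cKO and 404 FPKM in WT. The ranks that follow leave out chromosome 18 and genes with near-identical copies. Next in cKO was Macf1, a linker of microtubules and actin, with 5199 bp in exon 36 (114.16-fold), where WT had 2186 bp (23.28-fold). Ankrd11, a chromatin-associated ankyrin repeat protein, followed with 4468 bp in exon 9 at 149.21-fold in cKO, against 2605 bp at 98.61-fold in WT. Golgb1, the Golgi tether giantin, had 4259 bp in exon 13 at 31.74-fold in cKO and 5094 bp at 192.27-fold in WT. Mpeg1, a pore-forming protein of macrophages, had 4141 bp at 39.01-fold in cKO and 1313 bp at 9.86-fold in WT. These 5 each met a wide peak of the other library, and which library had the wider interval differed from gene to gene.

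In WT the next after Apob was Eppk1, which encodes the cytolinker epiplakin, with 2141 bp at 5.95-fold in cKO and 5850 bp at 49.33-fold in WT. Golga4, a golgin of the trans-Golgi, had 1885 bp at 50.43-fold in cKO and 4171 bp of exon 15 at 347.45-fold in WT. Scd1, the desaturase that makes oleate, was listed over its whole last exon in WT (chr19:44394450-44398118, 3669 bp, 3'UTR, 13.88-fold), and no cKO peak met it. The input held Scd1 at 246 FPKM in cKO and 73 FPKM in WT. Among the 5 named as widest in WT, only Scd1 lay with its centre in a 3'UTR. A further WT peak of between 4500 and 4600 bp was left out of these ranks.

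Some genes carried several wide peaks, which share a transcript and often an exon. Ahnak, a giant scaffold protein whose last exon measures 17498 bp, had 6 in cKO at 12.79-fold to 313.05-fold and 2 in WT at 5.27-fold and 22.66-fold. Its input was at 1.46 FPKM in cKO and 7.71 FPKM in WT. Mga, a transcriptional repressor, had 3 in cKO and 3 in WT, and Kat6a, a histone acetyltransferase, had 3 in cKO and 2 in WT. Spen, a corepressor, led in WT where cKO had 1 and WT 4. Phf3 and Brwd1, a PHD finger and a bromodomain protein, had 2 each in cKO and were among the genes with 3 in WT. More than 1 wide peak was listed for 67 genes in cKO and 71 in WT.

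Wide peaks had higher enrichments than narrower ones in each library. The median was 31.2-fold in cKO (quartiles 13.7 and 67) beside 14.6-fold for narrower peaks, and 57.4-fold in WT (27.4 and 116) beside 27.8-fold. Narrower peaks in exons of at least 800 bp were at 14.6-fold in cKO and 29.1-fold in WT, so the exon class alone did not go with the higher value. The authors' score, a multiple of the negative log10 of the p-value, is listed at 3100 or above for the strongest peaks, where it no longer ranks them. Such scores were listed for 34% of wide peaks in cKO (30.8% to 37.3%) and 51.1% in WT (47.8% to 54.4%), against 4.32% and 10.2% of narrower ones. The listed false discovery rate went the other way, with a median of 15.2% for wide and 12.2% for narrower peaks in cKO, and 2.02% and 1.66% in WT. A rate of at most 5% was listed for 1 wide peak in cKO and 877 in WT, and for 3 of 16482 narrower peaks in cKO and 15761 of 16291 in WT, so that gap belongs to the whole lists. These measures come from the same calls as the width.

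The highest enrichments are named with chromosome 18 and genes with near-identical copies left out. The 5 such wide peaks in cKO lay in genes that the cKO input held at lower levels than the WT input. Bmp2, a growth factor that endothelial cells of liver secrete, was at 840.09-fold in cKO and 31.43-fold in WT, with inputs of 2.91 FPKM in cKO and 21.2 FPKM in WT. Klf2, an endothelial transcription factor, was at 804.21-fold in cKO, against 5.28-fold for a narrower peak in WT, with inputs of 6.37 FPKM in cKO and 61.3 FPKM in WT. Clec4f, a lectin of Kupffer cells, was listed over the whole of exon 4 at 592.92-fold in cKO and met no WT peak, with inputs of 2.36 FPKM in cKO and 89.9 FPKM in WT. Filip1l was at 559.57-fold in cKO beside 98.7-fold for a narrower WT peak. Slk, a kinase, was listed over the same 1350 bp of exon 9 in both libraries, at 450.17-fold in cKO and 296.7-fold in WT.

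For the 5 of highest enrichment in WT under the same choice, the cKO input held more than the WT input. The highest value of any wide WT peak, 1363-fold, belonged to a peak left out by that choice. Glyctk, a kinase of glycerate metabolism, was at 22.31-fold in cKO and 1058.55-fold in WT, with inputs of 40.2 FPKM in cKO and 11.1 FPKM in WT. Arhgap5, a GTPase activating protein, was at 27.59-fold in cKO and 889.64-fold in WT, with inputs of 9.99 FPKM in cKO and 4.33 FPKM in WT. C8a, a chain of the complement attack complex, was at 33.82-fold in cKO and 887.97-fold in WT, with inputs of 95.6 FPKM in cKO and 31.2 FPKM in WT. Rnf103, a ubiquitin ligase of the endoplasmic reticulum, was at 25.49-fold in cKO and 819.64-fold in WT, and Phf3 at 137.72-fold in cKO and 780.05-fold in WT. The enrichment divides by the input, and no deposited value separates the IP from it.

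Wide peaks met a peak of the other library more often than narrower ones. Of those in cKO, 618 (77.7%, 74.7% to 80.5%) shared at least 1 bp with a WT peak, against 33.3% of narrower peaks. Of those in WT, 596 (67.4%, 64.3% to 70.4%) met a cKO peak, against 33.8%. A longer interval meets others more easily, so a window of 100 bp at the centre was also compared, which is the same for every peak. It met a peak of the other library for 64.3% of wide and 31.7% of narrower peaks in cKO, and for 53.2% and 32.2% in WT. Within exons of at least 800 bp the window shares were 64.1% for wide and 36.3% for narrower peaks in cKO, and 55.2% and 39.9% in WT. By width, the window share was 30.8% in cKO and 32.6% in WT at 200 to 399 bp, and 55% in cKO and 53.8% in WT at 400 to 599 bp. At 600 to 799 bp it was 58.7% in cKO (55.2% to 62.1%) and 54.8% in WT (51.4% to 58.1%). At 800 to 1199 bp it was 62.9% in cKO (58.7% to 66.9%) and 51.6% in WT (47.6% to 55.6%). In cKO that was higher than at 400 to 599 bp, with an interval overlapping the one at 600 to 799 bp. In WT it was not higher than at either of these widths.

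**Figure D4:**
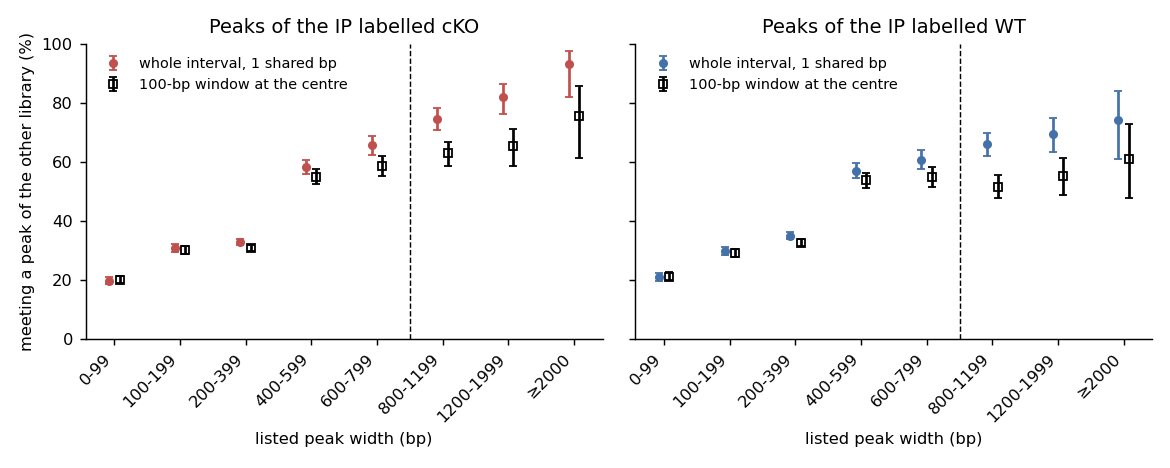
Share of peaks (%) that met a peak of the other hepatocyte library, by listed width in bp, for peaks of the IP labelled cKO (left) and WT (right), with filled points for the whole interval, open squares for a 100 bp window at the centre, and bars for 95% Wilson intervals. The dashed line is the 800 bp limit, and in cKO the whole-interval share reached 93.3% for the 45 peaks of at least 2000 bp.

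A wide peak in each library was rarer than any overlap. In cKO, 318 wide peaks (40%) met a wide WT peak, 300 (37.7%) met narrower WT peaks and 177 (22.3%) met none. In WT, 322 (36.4%) met a wide cKO peak, 274 (31%) met narrower ones and 288 (32.6%) met none. By gene, 300 had a wide peak in each library, which is 42.3% of the 710 in cKO and 37.5% of the 800 in WT. Of the 410 genes with one in cKO alone, 320 had narrower peaks in WT, and of the 500 with one in WT alone, 367 had narrower peaks in cKO.

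Where wide peaks met, they covered much the same ground. Paired by the largest shared stretch, 315 wide cKO peaks had a wide WT peak as partner, with median widths of 1155 bp in cKO and 1197 bp in WT and a median shared stretch of 974 bp. The cKO peak was the wider in 142 pairs, the WT peak in 158, and 15 pairs had identical borders. Enrichment was lower in cKO in 262 of the pairs (83.2%), with a median log2 ratio of cKO over WT of -1.58 (quartiles -2.77 and -0.51). The 5488 narrower cKO peaks that met a WT peak had a median of -1.29 and were lower in cKO in 76.4% of cases, so most of the gap was shared by the whole list. With chromosome 18 and genes with near-identical copies left out, the pairs of largest common width after Apob and Golgb1 were Jun, Mia3 and Bod1l. Jun, an immediate early transcription factor with a lone exon, had 3151 bp at 214.26-fold in cKO and 2615 bp at 235.09-fold in WT. Mia3, a cargo receptor for collagen and lipoprotein export, had 2613 bp at 6.94-fold in cKO and 2670 bp at 85.99-fold in WT.

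Which library had the wide peak alone went with the input level of the gene. Genes of the 288 wide WT peaks that met no cKO peak had median inputs of 21.2 FPKM in cKO and 8.81 FPKM in WT, a median log2 fold change (cKO over WT, on log2 of FPKM plus 1) of 1.24. Of the 273 measured ones, 165 (60.4%) were at least 2-fold higher in cKO, against 16% of all 14615 genes above 0 in an input, and 1 was at least 2-fold lower, against 10.5%. Genes of the 177 wide cKO peaks that met no WT peak had median inputs of 1.24 FPKM in cKO and 6.1 FPKM in WT, a median log2 fold change of -1.55. Of the 164 measured ones, 109 (66.5%) were at least 2-fold lower in cKO and 4 were at least 2-fold higher. For genes of wide peaks that met each other the median was 0.42. The authors called the peaks against these inputs, so the comparison is not independent of the rule, and the part that the input, the mark or the makeup of the cells has in it cannot be told apart. A further choice, made after the data were seen, took genes whose FPKM plus 1 differed by less than 1.2-fold between the inputs. On this scale genes of low FPKM pass more easily, so their inputs were not matched in FPKM itself. Below 1 FPKM in each input were 28 of 685 genes with a wide peak in cKO and 17 of 778 in WT. Of genes with only narrower peaks, 1314 of 8499 were. Among the genes so taken, 91.3% of 150 wide peaks in cKO and 86.3% of 146 in WT met a peak of the other library. Narrower peaks did so at 32.8% and 40.6%. With the 100 bp window these shares were 74% for wide and 31.1% for narrower peaks in cKO, and 71.9% and 38.6% in WT.

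**Figure D5:**
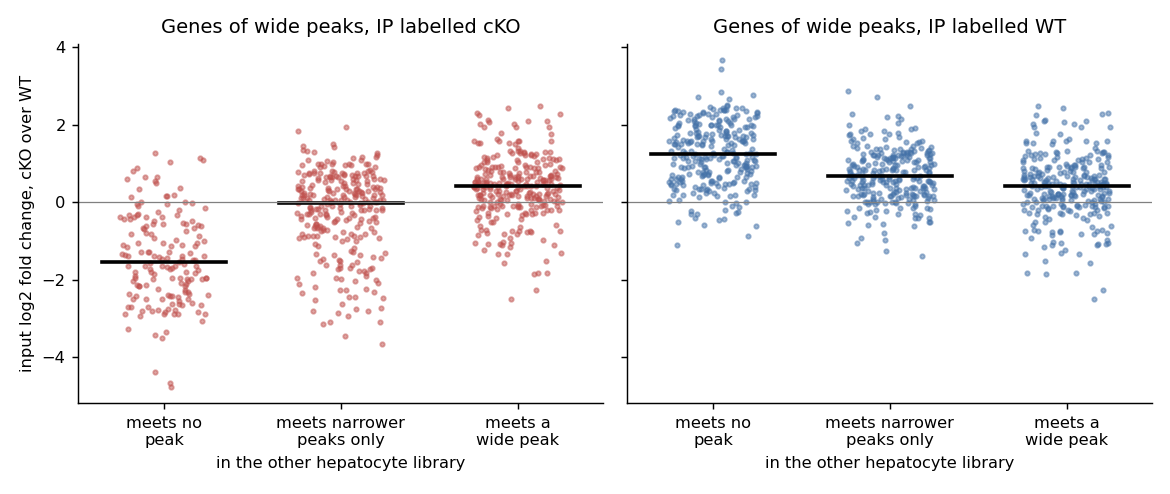
Input log2 fold change, cKO over WT, of genes with wide peaks in the IP labelled cKO (left) and WT (right), by what the wide peak met in the other library. Each point is a gene, bars are medians, and the medians run in opposite directions: -1.55 for cKO peaks that met none and 1.24 for WT peaks that met none.

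Genes of liver metabolism carried wide peaks mainly in the IP labelled WT. The list counts here and below stand beside 8.71% of genes with any peak in cKO and 10.7% in WT that had a wide one. Of 22 genes of fatty acid and cholesterol synthesis, 11 with some peak in cKO and all 22 in WT, 1 had a wide peak in cKO and 11 in WT. The strongest in WT were Acacb, the acetyl-CoA carboxylase of mitochondria, at 125.71-fold, and Lpin2, a phosphatidate phosphatase, at 110.63-fold, followed by Insig1, which holds the sterol sensor in the endoplasmic reticulum (28.2-fold), and the elongase Elovl5 (25.5-fold). These 4 had their centres in the 3'UTR. Lpin2 was the gene with a wide peak in each library, at 992 bp and 6.71-fold in cKO against 1800 bp and 110.63-fold in WT. All 22 genes of the list were higher in the cKO input, 20 of them at least 2-fold, against 16% of all genes above 0 in an input.

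Liver transcription factors and nuclear receptors followed the same order, with 4 of 22 genes in cKO and 14 of 22 in WT. A peak of any width was listed for 13 of them in cKO and for all 22 in WT. Onecut1 (576.25-fold), Prox1 (139.36-fold) and Foxa2 (115.69-fold), which set and keep the hepatocyte program, had wide peaks in WT alone. In cKO the list held Cebpb, a factor of the acute phase, at 9.01-fold, against 50.45-fold in WT, and Rxra, the partner of many nuclear receptors, at 2.72-fold, against 47.53-fold in WT. That Rxra peak had the lowest enrichment of the wide cKO peaks. The list's median input log2 fold change was 1.73, with all 22 genes higher in cKO.

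Insulin and growth signalling had 2 of 19 genes with a wide peak in cKO and 10 in WT, where 16 and 18 had some peak. Pik3r1, the regulatory subunit of PI3 kinase, had 1521 bp at 64.15-fold in cKO and 896 bp at 357.11-fold in WT, in the 3'UTR. The insulin receptor gene Insr had 931 bp at 12.1-fold in cKO and 2730 bp at 59.98-fold in WT, also in the 3'UTR. The receptor genes Egfr (233.04-fold), Ghr (172.07-fold) and Met (102.84-fold) had wide peaks in WT alone, the Met peak spanning all 1211 bp of exon 3. Of the 15 glycogen genes 1 had a wide peak in cKO and 4 in WT, where 8 and 13 had some peak. Ppp1r3g (549.75-fold) and Ppp1r3b (118.66-fold), which bring protein phosphatase to glycogen, and G6pc (105.8-fold), which releases glucose, had one in WT alone, and Stbd1, which anchors glycogen to membranes, had one at 10.21-fold in cKO and 28.23-fold in WT.

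Of 26 plasma genes, 18 with some peak in cKO and 22 in WT, 6 had a wide peak in cKO and 8 in WT, with 5 in common. The coagulation factor genes F5 and F10 were at 12.07-fold and 7.93-fold in cKO and at 22.99-fold and 25.15-fold in WT, and F8, a factor that liver endothelium makes, was at 248.32-fold in cKO alone. The fibrinogen gene Fga had 1509 bp at 6.39-fold in cKO and 2785 bp at 132.4-fold in WT, and Tat, an enzyme of tyrosine breakdown, had its whole last exon listed at 34.96-fold in WT alone. Of the 24 hepatocyte markers 2 had a wide peak in cKO and 6 in WT, where 11 and 22 had some peak.

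Markers of Kupffer cells and of sinusoidal endothelium carried wide peaks mainly in the IP labelled cKO, whose input held less of them. Of 17 Kupffer cell and macrophage genes, 16 with some peak in cKO and 5 in WT, 4 had a wide one in cKO and 1 in WT. Besides Clec4f and Mpeg1 these were C1qa, a chain of complement C1q (66.29-fold in cKO, inputs of 1.7 FPKM in cKO and 67 FPKM in WT), and Cd5l (41.54-fold in cKO, 4.03 and 103 FPKM). Of 14 sinusoidal endothelial genes, 12 with some peak in cKO and 5 in WT, 5 had a wide one in cKO and 0 in WT. Those in cKO were led by Cdh5 at 213.55-fold, Lyve1 at 167.98-fold, Kdr at 116.75-fold and Stab2 at 111.8-fold. All 14 were at least 2-fold lower in the cKO input, against 10.5% of all genes above 0 in an input. The stellate, cholangiocyte, lymphocyte and erythroid lists had no gene with a wide peak in either library. What share of this order comes from the amount of other cells in each preparation was not tested.

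Immediate early genes had 10 of 20 members with a wide peak in cKO and 4 in WT. Peaks of any width were listed for 18 of them in cKO and 11 in WT. Beside Klf2 and Jun, the strongest in cKO were Klf6 at 131.05-fold and Atf3 at 105.1-fold, both transcription factor genes with the peak in the 3'UTR. Their inputs were at 1.99 and 7.31 FPKM in cKO, against 21.2 and 37.8 FPKM in WT. Ier2 was at 7.33-fold in cKO and 8.43-fold in WT, and Cyr61, a matricellular protein gene, had a wide peak in WT alone, at 15.7-fold. All 20 genes of the list were lower in the cKO input, 12 of them at least 2-fold, against 10.5% of all genes above 0 in an input.

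Chromatin regulators and genes known for long coding exons carried wide peaks in similar numbers in each library. Of 30 chromatin regulators 12 had one in cKO and 12 in WT, with 6 in common and a median input log2 fold change of 0.13. The methyltransferase gene Nsd1 was at 46.11-fold in cKO and 209.66-fold in WT in exon 5, and the remodeller genes Chd1 and Chd2 at 43.6-fold and 30.13-fold in cKO and at 99.49-fold and 137.12-fold in WT. Of 30 genes listed for long exons 14 had one in cKO and 13 in WT. The large cytoskeletal genes had 7 of 21 in cKO and 4 in WT, all 4 of them in common. The list's median input log2 fold change was -0.83, and 9 of its genes were at least 2-fold lower in cKO, against 10.5% of all genes. Of 22 Notch, Wnt and TGF-beta genes 3 had one in cKO and 4 in WT, among them Fzd4 at 30.06-fold in cKO and 47.33-fold in WT and Notch2 at 12.57-fold and 35.42-fold.

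The m6A machinery itself carried a few. Ythdf3, a reader, had 1401 bp of exon 5 at 61.31-fold in cKO and 1503 bp at 217.04-fold in WT. Wtap, which holds the writer complex together, had 893 bp of its 3'UTR at 13.81-fold in cKO and 887 bp at 36.26-fold in WT. The reader gene Ythdf2 had wide peaks in cKO alone, and the writer complex genes Zc3h13 (92.16-fold) and Rbm15 (33.58-fold) in WT alone, where narrower peaks of the other library met each of them. In all, 3 of 19 genes had one in cKO and 4 in WT.

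GGAC was denser inside wide peaks than in the rest of the same exons. It stood at 4.86 sites per kb in wide cKO peaks and 3.25 per kb in the rest of their exons, and at 4.68 and 3.02 per kb in WT, over the 650 and 691 wide peaks that left some of the exon uncovered. With at least 200 bp of exon left, the peak was the denser in 408 of 571 cases in cKO (71.5%) and 413 of 590 in WT (70%). Narrower peaks also exceeded the rest of their exons, at 5.14 against 3.19 per kb in cKO and 5.08 against 3.16 per kb in WT. With at least 200 bp left, the narrower peak was the denser in 58% of cases in cKO and 58.8% in WT. Narrower peaks were slightly denser than wide ones, at 5.13 per kb in cKO and 5.16 per kb in WT, against 4.86 and 4.6 per kb over all wide peaks. At least 1 GGAC was found in 98.7% of wide and 59.4% of narrower peaks in cKO, and in 98.4% and 60.9% in WT, a share that grows with length. A wide peak held a median of 5 sites in each library. Within wide peaks the coding ones were at 5.04 per kb in cKO and 5 per kb in WT, and those in the 3'UTR at 4.44 and 4.1 per kb. Sites were searched on the mRNA strand as the letters GGAC.

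The male liver lists, which the rule did not use, met few of the wide peaks. Of those in cKO hepatocytes, 103 (13%, 10.8% to 15.5%) met a peak of any of the 4 liver libraries, against 4.51% of narrower peaks. Of those in WT hepatocytes, 146 did (16.5%, 14.2% to 19.1%), against 5.81%. With the 100 bp window the shares were 6.42% for wide and 3.97% for narrower peaks in cKO, and 10.6% and 5.27% in WT. The difference was thus smaller with the window than with the whole interval. The liver lists held 1624 and 1127 peaks in cKO livers, 64 and 26 of them wide, and 2424 and 1052 in WT livers, 33 and 34 of them wide. The wide ones had median enrichments of 12.5 and 10.6 in cKO livers, where narrower peaks had 4.52 and 6.35, and of 7.51 and 6.87 in WT livers, where narrower peaks had 3.75 and 3.75. No wide peak of cKO hepatocytes was met in all 4 liver libraries (0 of 795, where a limit of 3 counts allows a share of up to 0.377%), and 4 of WT hepatocytes were (0.452%), the Rnf103 peak among them. Narrower peaks were met in all 4 at shares of 0.449% in cKO and 0.509% in WT, so wide peaks did not stand above them here.

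Expression in male liver was the comparison with replicates, 2 cKO against 2 WT inputs, tested by limma on log2 of FPKM plus 1 with Benjamini-Hochberg adjustment over 10915 genes. Of the 1210 genes with a wide peak in either hepatocyte library, 1131 had a mean of at least 1 FPKM and were tested. At an adjusted p under 0.05, 30 (2.65%) were higher in cKO livers and 32 (2.83%) lower, against 3.7% and 1.51% of all genes tested. The median log2 fold change was 0.29 for these genes and 0.42 for all genes, so the whole table was shifted upward. With FPKM rescaled by median ratios, which takes the shift out, 10 were higher and 51 lower, and with any 1 of the 4 libraries left out limma called 0 of them, while 79 to 163 of them were higher and 50 to 111 lower before adjustment (p under 0.05). Genes with a wide peak in WT hepatocytes had 17 of 763 higher and 32 (4.19%) lower, with a median of 0.11. Genes with one in cKO hepatocytes had 20 of 651 higher (3.07%) and 6 lower (0.922%), with a median of 0.45. After the rescaling by median ratios the counts were 9 higher and 8 lower for genes with a wide peak in cKO hepatocytes, and 3 higher and 51 lower for those with one in WT hepatocytes.

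Among genes that fell in cKO livers, C8a was at 1.69 and 0.854 FPKM in cKO livers and 240 and 175 FPKM in WT livers, a log2 fold change of -6.53 (standard error 0.39, adjusted p = 0.000861, limma). Cyp8b1, a sterol hydroxylase of bile acid synthesis with a wide peak in WT hepatocytes, was at 4.53 and 3.22 FPKM in cKO livers and 48.7 and 113 FPKM in WT livers (-3.96, standard error 0.48, adjusted p = 0.0126, limma). Slc25a47, a mitochondrial carrier of liver, was at 2.14 and 10.7 FPKM in cKO livers and 106 and 71.2 FPKM in WT livers (-3.86, standard error 0.63, adjusted p = 0.0236, limma). These 3 were chosen for the size of their fall past the threshold, so the gap between the groups' livers is no further evidence.

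Among genes that rose, Aldh1b1, a mitochondrial aldehyde dehydrogenase, was at 80.9 and 120 FPKM in cKO livers and 5.31 and 11.7 FPKM in WT livers, a log2 fold change of 3.47 (standard error 0.45, adjusted p = 0.0149, limma). Pygb, the brain form of glycogen phosphorylase, was at 11.8 and 38.1 FPKM in cKO livers and 1.09 and 1.28 FPKM in WT livers (3.36, standard error 0.57, adjusted p = 0.0269, limma). Rgs2, a brake on G protein signalling, was at 16.3 and 22.7 FPKM in cKO livers and 0.823 and 3.85 FPKM in WT livers (2.77, standard error 0.54, adjusted p = 0.0366, limma). The wide peaks of Pygb (812 bp) and Rgs2 (928 bp) were in the 3'UTR in cKO hepatocytes alone, and Aldh1b1 had one in each library, at 7.85-fold in cKO and 80.86-fold in WT. The Rgs2 call held in 1 of 9 alternative settings (adjusted p 0.0093 to 0.322, limma), the C8a call in 5 and the other 4 calls in 4 each, and none held with a library left out.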

How the data were processed

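Per the submitters' processing notes and the study's methods, cutadapt 1.9.3 was used for trimming and HISAT2 2.0.4 for alignment to mm10. Peaks came from MACS, per library (version not given in the sources used here), and those overlapping exons were retained. The fold enrichment in the deposited lists is the ratio of IP over input. The deposited score is a multiple of the negative log10 of the p-value, and the deposited false discovery rate is in percent. The deposited FPKM come from the authors' Cufflinks, and their scaled count columns are a signal used here for depth. FPKM are not counts, so log2 of FPKM plus 1 was tested. Sequencing depths of the IPs are unknown here, and the female RNA-seq pair was not used.

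Peaks were compared with bedtools 2.31.1 (1 shared bp), placed by their centre on GENCODE M21, longest coding sequence of the listed gene first, and on the listed RefSeq transcript of GRCm38.p6. Sequence was read with pysam 0.24.0. Intervals are 95% Wilson intervals (scipy 1.17.1). limma 3.58.1 (R 4.3.3, variance trend) was checked on simulated tables. These were drawn with independent spread and no shift common to all genes. They therefore cannot vouch for the fit under the upward shift seen in the livers. Where a symbol had several entries, 1 was kept. Nothing in the labels says that the libraries of a group come from separate animals, so p-values measure the spread between these libraries.

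The members and lists were chosen with earlier results of these data known. Named per library, leaving out chromosome 18, were the 5 widest and 5 most enriched wide peaks, the 3 genes with most wide peaks, the 5 widest pairs, 3 peaks on each side of the limit, up to 4 list members by enrichment, and the 3 largest liver changes each way. Genes with near-identical copies were counted and not named, and some items are not reported here. Alternatives varied the width, enrichment, false discovery rate, overlap, region, sequence word, pseudocount, filter, scaling, variance trend, replicate block and libraries left out.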

Additional observations from a re-analysis of the deposited data

Results flagged for a closer look

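For 5 of the 6 genes named from the male liver fit, the hepatocyte inputs and the male livers went opposite ways between cKO and WT, and this difference was not tested, since hepatocytes have 1 library per genotype. C8a had a log2 fold change of 1.58 in hepatocytes (95.6 FPKM in cKO and 31.2 FPKM in WT) and -6.53 in male liver. Cyp8b1 was at 2.27 in hepatocytes and -3.96 in liver, and Slc25a47 at 2.10 in hepatocytes and -3.86 in liver. Pygb was at -1.32 in hepatocytes (0.523 FPKM in cKO and 2.81 FPKM in WT) and 3.36 in liver, and Rgs2 at -3.26 in hepatocytes and 2.77 in liver. These genes were chosen for the size of their liver change.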

How the results depend on the processing

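With a width of 600 bp the lists held 1582 wide peaks in cKO and 1733 in WT, and with 1000 bp 437 and 485. The share meeting the other library was then 71.7% in cKO and 64.2% in WT at 600 bp, and 81.2% in cKO at 1000 bp. It was 69.5% and 48.7% for peaks enriched at least 10-fold, 50.8% and 42.8% where at least 50% of each interval had to be shared, and 64.3% and 53.2% with the 100 bp window. In genes with inputs within 1.2-fold on FPKM plus 1 it was 91.3% and 86.3%. A false discovery rate of at most 5% left 1 wide peak in cKO, so that 0% of those in WT could meet one, and no cKO share was taken. The 3'UTR share in cKO was 42.1% at 600 bp and 29.5% at 1000 bp. Overlap with liver peaks was 13.1% in WT at 600 bp, 6.42% in cKO and 10.6% in WT with the window, and 2.39% and 3.85% where 2 of the 4 liver libraries were needed. Leaving out 1 liver library gave 9.43% to 11.3% in cKO and 12.1% to 14.5% in WT. The median input log2 fold change of genes with a wide WT peak was 0.88 with a pseudocount of 0.1. Merging changed nothing, as no intervals touched.

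In male liver the 30 higher and 32 lower genes became 10 and 51 with median-ratio rescaling, 0 and 3 without the filter (181 and 93 before adjustment), and 13 and 18 without the variance trend. Leaving out any 1 library gave 0 and 0 in limma, with 1 residual degree of freedom. With a replicate block the counts were 60 higher and 55 lower. The deviations of same-numbered livers correlated at 0.13 over 10915 genes, and the labels do not state that the numbers pair the animals. The 6 named genes kept their direction in each of the 9 alternatives. The causes were not tested.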

Other observations

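A few wide peaks lay in genes that both hepatocyte inputs held at very low levels. Below 1 FPKM in each input were 28 of the 685 measured genes of cKO wide peaks and 17 of the 778 of WT wide peaks. Of the 14615 genes above 0 in an input 4162 were, a larger share. Rp1, a photoreceptor microtubule gene singled out after its values were seen, had 2 wide peaks in cKO at 12.92-fold and 7.3-fold and 3 in WT at 5.52-fold to 13.88-fold, all in exon 4, which measures 6585 bp. Its input was at 0.104 FPKM in cKO and 1.27 FPKM in WT. The Plin4 gene of a lipid droplet protein, also singled out afterwards, had 1 wide peak in cKO at 3.67-fold and 3 in WT at 83.36-fold to 368-fold, with inputs of 3 FPKM in cKO and 0.607 FPKM in WT. For Plin4 the library with the higher enrichment had the lower input, as it did for Glyctk. For Rp1 the highest enrichment, 13.88-fold, was in WT, which had the higher input. Neither Rp1 nor Plin4 is among the genes counted above, as each was above 1 FPKM in 1 of the inputs.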
